A study of Mus musculus with 2 samples.

Results

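The genes described here are the 63 protein-coding genes of the GENCODE annotation whose names run from Zfp900 to Zfp999, chosen by name alone out of 21938 protein-coding genes on chromosomes 1 to 19, X and Y. They lie on 12 chromosomes, and 43 of them fall into 5 clusters, defined as runs of at least 3 members with neighbouring starts at most 1 Mb apart. Accessible chromatin was measured by ATAC-seq, which uses the transposase Tn5 to cut open DNA and to add tags to the ends. The cells were mouse embryonic stem cells (mESCs) of the line EHMT2-dTAG-mcherry, from a BL6/129 hybrid strain, grown in DMEM KO medium with FBS and LIF. EHMT2, an H3K9 methyltransferase, carries a degron tag at its endogenous gene in these cells. They received only the vehicle DMSO for 24 h, so the protein was present. Cells of 2 independent clones were used at 50000 per sample, and the deposited peak list was called on both clones merged. Its values therefore have no spread between replicates, no test between conditions was possible, and no p-value is given. All intervals below cover counting error only.

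Most of these genes belong to the KRAB zinc finger family. Such a protein binds DNA through an array of C2H2 zinc fingers, often within one retrotransposon family, and its KRAB domain recruits TRIM28 (KAP1), which brings in SETDB1 and the mark H3K9me3. The family has expanded in rodents by local duplication, which left clusters of closely related genes, and deletion of clusters on chromosomes 2 and 4 in mESCs is known to reactivate endogenous retroviruses. ZFP932, one of the members, is known to bind and repress such elements.

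The translated coding sequences were checked for the C2H2 pattern, with cysteines 2 to 4 residues apart, then 12 residues, then histidines 3 to 5 residues apart. The members held a median of 11 matches, against 10.5 for the 302 other genes named Zfp and a number. Zfp974 held the most, with 21 matches in 752 residues. No match was found in 3 members, Zfp957 with 567 residues, Zfp935 with 150 and Zfp972 with 139. Zinc fingers of another spacing or class were not searched for, so these 3 may still hold some.

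The bases just before the starts show how different, and how alike, these promoters are. The 200 bases before the start are printed 5′ to 3′ on the strand of the gene, from the reference genome GRCm38 (mm10), with CpG dinucleotides and the letters CCAAT or their complement ATTGG in capitals. The first 3 belong to the members with the highest fold enrichment at the start, Zfp972 (chr2:177925614-177925813, minus strand), Zfp983 (chr17:21650424-21650623, plus strand) and Zfp963 (chr8:69749971-69750170, minus strand).
Zfp972: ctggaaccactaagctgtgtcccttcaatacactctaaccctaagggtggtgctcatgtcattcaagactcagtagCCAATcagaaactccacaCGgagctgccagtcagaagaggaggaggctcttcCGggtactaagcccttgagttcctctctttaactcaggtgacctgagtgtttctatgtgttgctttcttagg
Zfp983: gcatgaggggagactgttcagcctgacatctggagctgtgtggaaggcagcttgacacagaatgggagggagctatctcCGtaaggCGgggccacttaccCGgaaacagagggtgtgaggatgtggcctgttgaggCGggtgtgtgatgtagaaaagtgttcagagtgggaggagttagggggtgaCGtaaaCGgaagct
Zfp963: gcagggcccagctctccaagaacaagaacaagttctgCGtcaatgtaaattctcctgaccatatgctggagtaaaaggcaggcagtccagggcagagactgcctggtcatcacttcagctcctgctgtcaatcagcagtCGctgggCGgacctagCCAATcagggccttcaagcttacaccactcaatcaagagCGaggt

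The next 3 belong to members without a start peak that lay among the farthest from any peak, all on the plus strand. These were Zfp993 (chr4:146610761-146610960), Zfp981 (chr4:146501827-146502026) and Zfp989 (chr4:146971776-146971975).
Zfp993: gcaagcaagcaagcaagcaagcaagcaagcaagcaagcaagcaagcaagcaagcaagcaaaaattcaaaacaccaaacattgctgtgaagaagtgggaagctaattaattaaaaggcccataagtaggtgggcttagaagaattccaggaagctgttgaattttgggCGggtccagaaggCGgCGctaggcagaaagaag
Zfp981: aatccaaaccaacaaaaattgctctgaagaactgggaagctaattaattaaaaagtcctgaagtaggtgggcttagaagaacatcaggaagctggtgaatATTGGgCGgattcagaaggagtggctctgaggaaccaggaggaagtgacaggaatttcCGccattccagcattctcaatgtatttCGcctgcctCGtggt
Zfp989: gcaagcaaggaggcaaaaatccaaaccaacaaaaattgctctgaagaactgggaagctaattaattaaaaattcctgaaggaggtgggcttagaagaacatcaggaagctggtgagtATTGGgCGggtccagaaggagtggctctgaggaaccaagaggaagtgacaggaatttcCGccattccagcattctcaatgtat

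The last 3 come from the chromosome 2 cluster and were chosen after the values were seen, because nearly the same promoter letters occur there with and without a peak. Zfp967 (chr2:176520856-176521055) and Zfp970 (chr2:177464533-177464732) had no start peak, whereas Zfp971 (chr2:178023084-178023283) had one. All are on the plus strand.
Zfp967: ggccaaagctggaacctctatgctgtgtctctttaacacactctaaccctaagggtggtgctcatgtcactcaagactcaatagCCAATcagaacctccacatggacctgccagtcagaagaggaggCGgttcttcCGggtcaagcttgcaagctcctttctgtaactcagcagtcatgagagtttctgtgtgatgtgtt
Zfp970: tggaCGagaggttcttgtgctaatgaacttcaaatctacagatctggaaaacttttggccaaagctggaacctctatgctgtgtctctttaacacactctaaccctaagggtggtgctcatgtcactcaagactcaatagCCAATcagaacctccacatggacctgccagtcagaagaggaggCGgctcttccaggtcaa
Zfp971: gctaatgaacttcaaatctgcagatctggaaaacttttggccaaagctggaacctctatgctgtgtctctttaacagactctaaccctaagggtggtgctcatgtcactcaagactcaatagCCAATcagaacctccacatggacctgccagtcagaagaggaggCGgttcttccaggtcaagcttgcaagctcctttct

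These 9 stretches hold between 1 and 6 CpG dinucleotides each, with 6 before Zfp983 and 2 before Zfp972, the members with the highest values. Zfp967 and Zfp971 share an exact run of 98 bases that includes the CCAAT letters, starting 161 bases before the start of Zfp967 and 123 bases before that of Zfp971. The run shared by Zfp970 and Zfp971 is 91 bases long. Zfp981 and Zfp989 on chromosome 4 share 57 bases. All shared runs in this text were sought on the gene's own strand from 250 bases before to 50 bases after the start.

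A peak was found within 500 bp of the start in 39 of the 63 genes, or 61.9%. Among all protein-coding genes the share was 64.3%, so the members as a whole lay near the background. It was 88.4% among the other Zfp genes. Fold enrichment is the ratio of fragments at the peak summit to those of the local background, after 1 is added to both. Its median over the 39 start peaks was 12.3, with quartiles of 9.44 and 14.6, against 8.43 over the 14106 protein-coding genes with a start peak and 9.06 over 267 other Zfp genes. Of the 39 members, 31 lay above the median of all start peaks and 25 above their upper quartile of 11.4. The summits held a median of 50 fragments, against 32 in both comparison sets. At a stricter −log10 q-value, of 10 or more, 34 of the 63 members had a start peak, or 54.0%. This compares with 47.1% of all protein-coding genes and 73.5% of the other Zfp genes.

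The 24 members without a start peak were not spread evenly. Of these, 21 lay in 2 long stretches of chromosomes 2 and 4 that hold no peak at all, described below. Counting all stretches of at least 1 Mb between neighbouring peaks, the genome had 11 such peak-free spans. Outside them, a start peak was present in 39 of 42 members, or 92.9%. The background outside these spans was 65.1% of protein-coding genes, and 89.0% of the other Zfp genes had a start peak there. The spans were defined after the peaks had been seen, and by their lack of peaks. Leaving them out removed only starts without a peak, so it could only raise these shares. It took out 21 of 63 members, 2 of 302 other Zfp genes and 276 of all 21938 protein-coding genes.

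**Figure D1:**
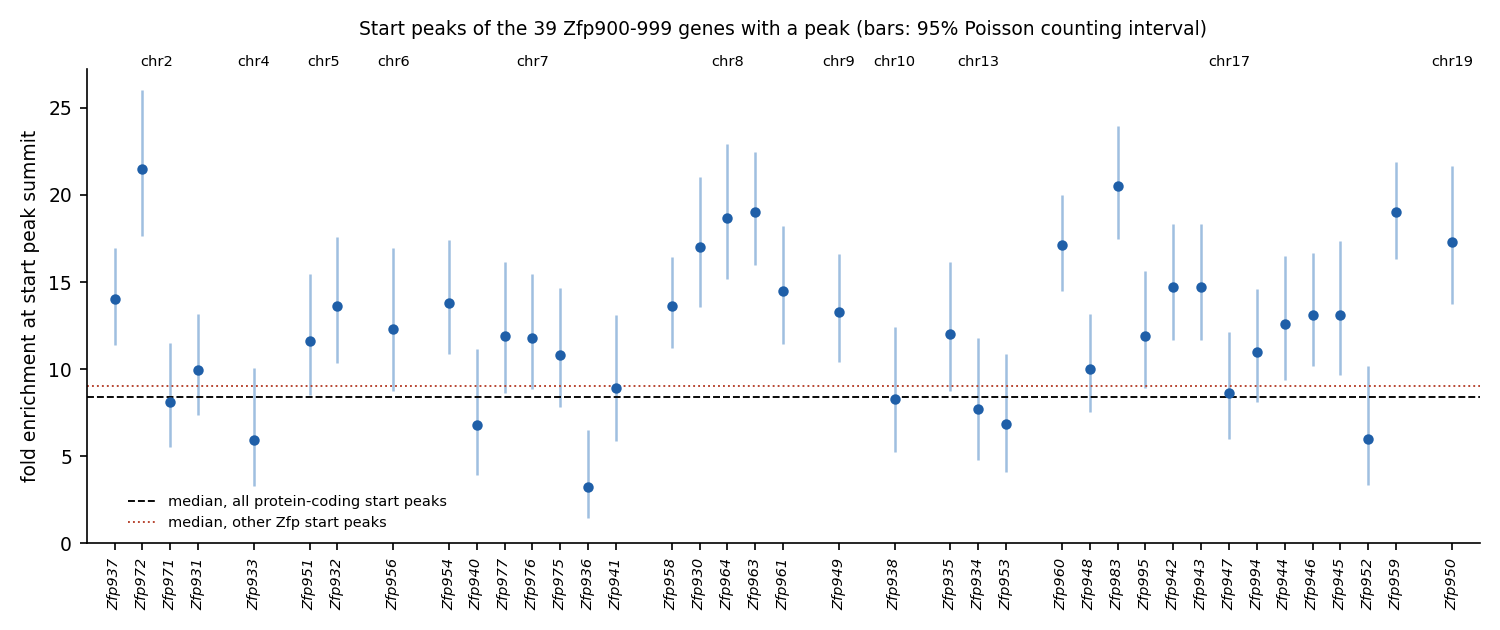
Fold enrichment at the start peak of each of the 39 genes with one, in order of position along each chromosome; vertical bars are the 95% Poisson counting intervals of the fragments over the summit with the background held fixed, and the lines are the medians over all protein-coding start peaks (8.43, dashed) and over those of other Zfp genes (9.06, dotted). The points run from 3.24 (Zfp936) to 21.5 (Zfp972), and 31 of them lie above the dashed line.

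Zfp972 (chr2:177903340-177925613) had the highest start peak, with a fold enrichment of 21.5 from 104 fragments (95% Poisson interval 85.0 to 126) over a background of 3.88. This placed it at rank 29 of the 14106 genes with a start peak. Its summit lay 253 bp before the annotated start. Of the sequence words around its start, counted as described below, 37.5% occur elsewhere in the genome, with up to 5 further copies. Reads matching several copies were placed at random among them, so this peak may hold reads of another copy. How far this affects its value and rank was not tested. Zfp972 itself has the short model without a C2H2 match named above.

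Zfp983 (chr17:21650624-21664966) followed with a fold enrichment of 20.5 from 154 fragments (131 to 180), at rank 44. Its annotation gives 11 C2H2 matches, the median of the members, and a second, divergent gene starts within 1 kb. On chromosome 8, Zfp963 reached 19 from 137 fragments (115 to 162), and its neighbour Zfp964 reached 18.7 from 93 (75.1 to 114). With the background held fixed, the intervals of their fold enrichment were 16 to 22.4 and 15.2 to 22.9 and overlapped, although Zfp963 had more fragments over a higher background. Zfp959 (chr17:55892093-55898928) had the most fragments of all members, 187 (161 to 216). Its background of 8.92 was also the highest, and its fold enrichment was 19, with an interval of 16.3 to 21.9. Words that occur elsewhere made up 35.3% at the start of Zfp959 and 15.6% at that of Zfp983. The caution given for Zfp972 therefore applies to them too. Zfp963 and Zfp964 had no such word.

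Zfp950 on chromosome 19 (17.3, 76 fragments), Zfp960 on chromosome 17 (17.1, 151 fragments) and Zfp930 on chromosome 8 (17, 83 fragments) came next. The last of the highest 10 were Zfp942 and Zfp943 on chromosome 17, which face away from each other and share 1 peak. That peak, chr17:21962123-21962911, had a fold enrichment of 14.7 from 77 fragments (60.8 to 96.2). It cannot be assigned to either gene, so the 39 genes had 38 distinct start peaks. In all, 8 of the 63 members have a divergent gene start within 1 kb. Among them are Zfp932, Zfp944, Zfp953 and Zfp954, whose start peaks may likewise belong to either gene.

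The weakest start peak was that of Zfp936 (chr7:43114229-43192109), with a fold enrichment of 3.24 from 6 fragments (2.2 to 13.1). It lay 203 bp before the start and was only 215 bp wide. Zfp933 and Zfp952 had 12 fragments each (6.20 to 21.0), at a fold enrichment of 5.96 and 6.01. Zfp940 had 14 fragments and 6.82, and Zfp953 had 16 and 6.85. The −log10 q-values of these 5 were between 1.66 and 9.68, which is why they drop out under the stricter threshold. With so few fragments, their order is within counting error.

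Start peaks of the members had a median width of 950 bp and ranged from 215 bp to 1550 bp (Zfp977). The summit lay within 200 bp of the annotated start in 32 of 39 genes and downstream of it in 24. The farthest were Zfp954, 392 bp downstream, and Zfp960, 291 bp upstream. Widening the window to 2000 bp or using the start of any annotated transcript added no further member, so a member without a start peak had no peak at another annotated start either.

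The chromosome 4 cluster held 16 members, of which only Zfp933, at its distal end, had a start peak. The other 15 start in chr4:145387365-147848046, a stretch of 2460682 bp without any peak. It contains 21 protein-coding starts, 17 of them of Zfp genes, and undetermined bases make up 17.6% of it. In order of position, the members in it were Zfp990, Zfp980, Zfp986, Zfp987, Zfp992, Zfp981, Zfp993, Zfp989, Zfp991, Zfp988, Zfp978, Zfp982, Zfp985, Zfp979 and Zfp984. Zfp993 (chr4:146610961-146658160) was farthest from any peak, at 1223597 bp. Zfp981 lay at 1114663 bp, Zfp992 at 1061659 bp and Zfp989 at 876071 bp. The nearest was Zfp984, at 38259 bp. ZFP982, encoded 355630 bp from the nearest peak, has been linked to the stem cell state of mESCs.

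Zfp933 starts 320 bp beyond the end of this stretch. Its peak, chr4:147848047-147849501, is the one that ends the stretch, and it was among the 5 weakest of the members.

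The chromosome 2 cluster divided in the same way. Of its 10 members, Zfp968, Zfp965, Zfp969, Zfp966, Zfp967 and Zfp973 start in chr2:174948746-176762229, a peak-free stretch of 1813484 bp with 26 protein-coding starts and 19.3% undetermined bases. Zfp970, outside it, also had no start peak, and its nearest peak was 33092 bp away. Zfp972, Zfp971 and Zfp931 at the distal end had fold enrichments of 21.5, 8.11 and 9.96. The cluster thus held both the highest start peak of all members and 7 starts without one.

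**Figure D2:**
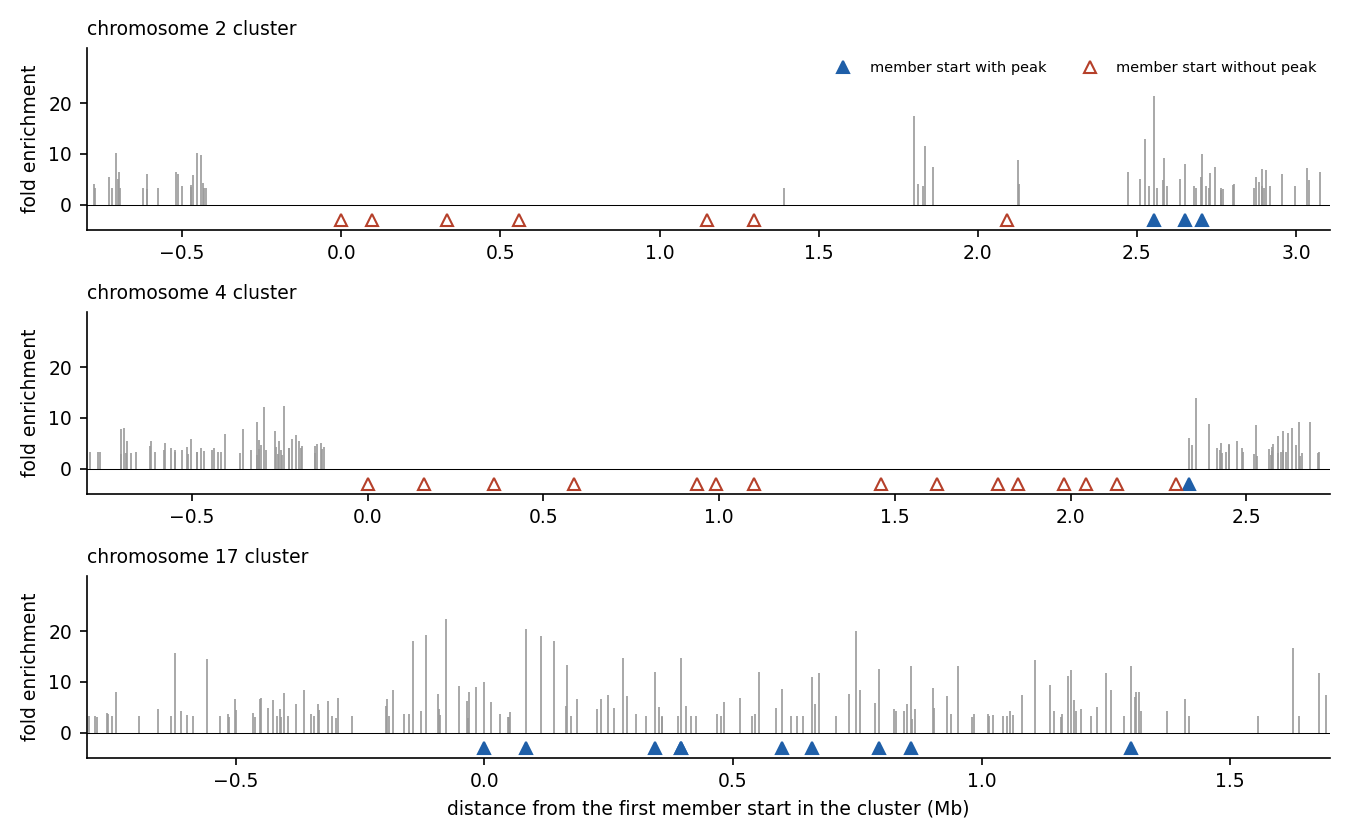
ATAC peaks (grey lines, height is fold enrichment at the summit) and member starts (triangles) along the clusters of chromosomes 2, 4 and 17, plotted as distance in Mb from the first member start. Filled blue triangles are starts with a peak within 500 bp and open red triangles starts without one; all 10 starts on chromosome 17 are filled (Zfp942 and Zfp943 coincide), against 3 of 10 on chromosome 2 and 1 of 16 on chromosome 4.

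Sequence copies were frequent among the starts in the 2 stretches. For each start window of 500 bp on either side, the share of its 100-base words that occur elsewhere in the genome was computed. It was at least 50% in 12 of the 21 members in the 2 stretches, against 2 of the 42 members outside them and 4.41% of all protein-coding genes. In the chromosome 2 stretch all 6 windows were fully made of such words, with up to 15 further copies. The 300 bases around the start were identical between Zfp967 and Zfp969, between Zfp965 and Zfp973, and, on chromosome 4, between Zfp978 and Zfp979, where single words recur up to 437 times. Other starts in the chromosome 4 stretch were nearly unique. The share was 0.443% for Zfp985, 3.88% for Zfp981 and 4.55% for Zfp988, and 6 of the 21 were under 10%, and these had no peak either.

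The authors removed reads in ENCODE High Signal Regions before peak calling, and those regions were not used here. Closed chromatin and removed reads therefore cannot be told apart in the 2 stretches. Undetermined bases make up 19.3% of the chromosome 2 stretch and 17.6% of that on chromosome 4. The promoters printed above from these stretches hold none. The parts of undetermined bases and of sequence copies were not tested. Outside the stretches, a start peak was present in 21 of 22 members with any copied word and in 18 of 20 with none. Only 2 members there had at least 50% of their words copied. Zfp931 had a peak with 60.4% copied, and Zfp970 had none with 53.9%. Over all protein-coding genes outside the spans with at least 50% copied words, 12.4% of 741 had a start peak. The share over all protein-coding genes outside the spans was 65.1%.

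The other 3 clusters had a peak at every member start. On chromosome 17, the 10 members from Zfp948 to Zfp945 (chr17:21567008-22867134) ranged from a fold enrichment of 8.65 at Zfp947 to 20.5 at Zfp983, with a median of 12.8. Between these lay Zfp948 (10.04), Zfp994 (11.0), Zfp995 (11.9), Zfp944 (12.6), Zfp946 and Zfp945 (both 13.1), and Zfp942 and Zfp943 with their shared peak (14.7). The counting intervals of the fold enrichment overlapped between each gene and the next in this order, but those of Zfp983 (17.4 to 24.0) and Zfp945 (9.63 to 17.3) did not. Zfp942 and Zfp944 share a run of 207 bases at the start, the longest in this cluster, and both had a peak, of 77 and 50 fragments. Over the 45 pairs of this cluster the median shared run was 10 bases, against 98 over the 45 pairs on chromosome 2 and 22.5 over the 120 pairs on chromosome 4.

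The chromosome 8 cluster of Zfp930, Zfp964 and Zfp963 had the highest median, 18.7. The 4 members on chromosome 7 had fold enrichments of 11.9 (Zfp977), 11.8 (Zfp976), 10.8 (Zfp975) and 3.24 (Zfp936). The first 3 lie side by side and did not differ beyond counting error, with 40, 52 and 40 fragments, whereas Zfp936, with 6, lay below all of them.

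Of the 20 members outside clusters, 18 had a start peak, with a median fold enrichment of 12.8 and a range from 6.01 (Zfp952) to 19 (Zfp959). Zfp932 (chr5:109996521-110010411), whose product binds retroviral elements, had 13.6 from 57 fragments (43.2 to 73.9). Zfp937 on chromosome 2 and Zfp961 on chromosome 8 reached 14.0 and 14.5. The exceptions were Zfp974 (chr7:27907392-27929460), whose nearest peak lay 4274 bp from its start, and Zfp957 (chr14:79212355-79247369), at 4521 bp. Neither start window had a copied word, although 52.1% of that of Zfp957 is repeat-masked, the highest share of all members, against 5.49% for Zfp974. Zfp974, the gene with the most zinc fingers, had a CpG observed/expected ratio of 0.646, among the highest of the members, and Zfp957 one of 0.203.

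The study defined ECORDs, runs of neighbouring genes with coordinate expression changes in its RNA-seq data. Of these, 91 ranges were higher in 2-cell-like cells (2CLCs), a rare state in mESC cultures that expresses genes of the 2-cell embryo. A total of 16 members start inside such a range. Zfp958 (chr8:4613167-4630231) and Zfp949 (chr9:88548020-88571061) had a start peak, of 13.6 from 107 fragments (87.7 to 129) and 13.3 from 73 (57.2 to 91.8). The other 14 are the members of the peak-free stretch on chromosome 4, from Zfp990 to Zfp979, without Zfp984. Among the 47 members outside these ranges, 37 had a start peak. The share over all protein-coding genes, inside or outside the ranges, was 64.3%, and the share outside them alone is not given here. Over all 1288 protein-coding genes inside the ranges the share was 27.2%, and 32% of 1095 outside the peak-free spans. These 14 start in a single range, chr4:145410245-147738426, which lies wholly in the stretch, so the range and the stretch cannot be told apart for them.

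The member starts were poor in CpG dinucleotides. The CpG observed/expected ratio of the 1 kb around the start had a median of 0.362, against 0.552 over all protein-coding genes and 0.646 over the other Zfp genes. A ratio of at least 0.6 was found in 8 of 63 members, in 45.9% of all protein-coding genes and in 59.9% of the other Zfp genes. Under 0.6, a start peak was present in 32 of 55 members, or 58.2%, against 36.5% of the other 11805 protein-coding genes and 76.9% of 121 other Zfp genes. The members thus lay below the other Zfp genes. Outside the peak-free spans a start peak was present in 32 of 34 members, or 94.1%. The share there was 78.2% of 119 other Zfp genes and 37.3% of the other 11559 protein-coding genes. Leaving out the spans takes out only starts without a peak, and far more members than other Zfp genes. The reversed order of these 2 groups is therefore no result about the members. No test of these differences was made, because the members are neighbours of shared origin and the spans were set after the peaks were seen.

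Zfp972 had a ratio of 0.15, the lowest of the members with a start peak, at the highest fold enrichment of all. Its peak may hold reads of another copy, as stated above. Its promoter, printed above, holds 2 CpG dinucleotides in 200 bases. Zfp983 (0.288) and Zfp950 (0.294) were also low and among the highest 10. At the other end, the 7 members with a ratio of at least 0.6 and a start peak had fold enrichments between 12.3 and 19. Among them were Zfp942, with the highest ratio of 0.778 (14.7), Zfp944 (0.689, 12.6), Zfp959 (0.642, 19) and Zfp956 (0.641, 12.3). Over the 39 members with a start peak, fold enrichment and the ratio had a Spearman's rho of 0.16 and a Pearson's r of 0.13. With GC content the values were 0.49 and 0.50. Over all 14106 genes with a start peak, rho was 0.29 for the ratio and 0.09 for GC content. All points share 1 peak list, and no p-value is given.

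**Figure D3:**
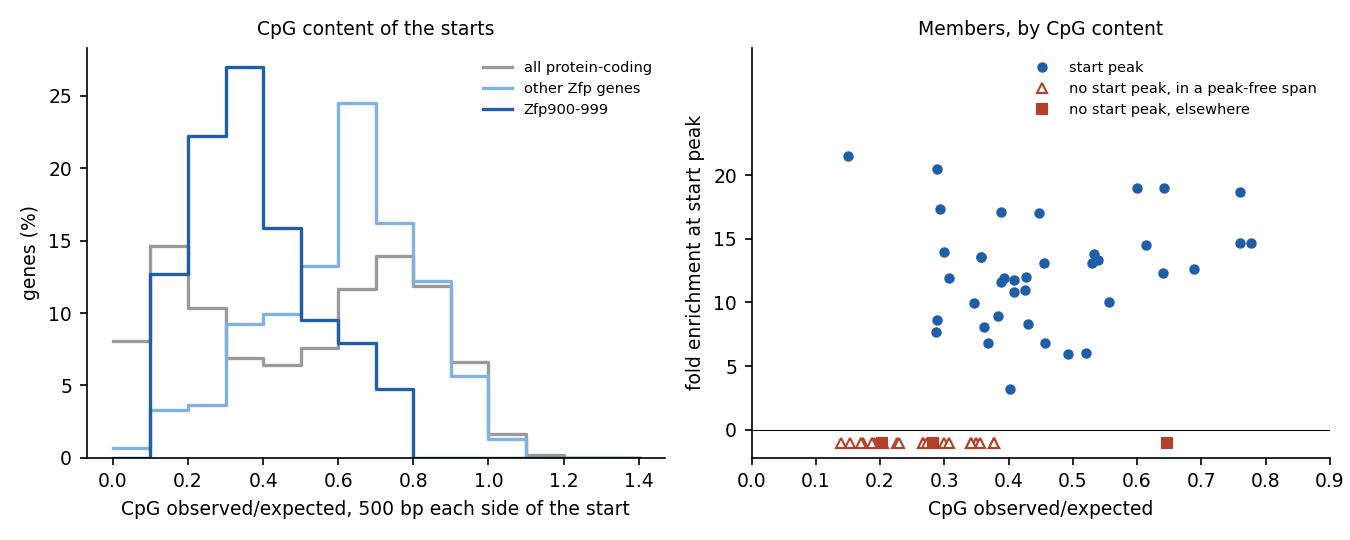
Left, share of genes (%) by CpG observed/expected ratio of the 500 bp on either side of the start, in bins of 0.1, for the 63 members, 302 other Zfp genes and all protein-coding genes. Right, fold enrichment at the start peak against this ratio for the members; open triangles are the 21 starts in peak-free spans and filled squares the other 3 starts without a peak, drawn below 0 because they have no value. The members peak between 0.3 and 0.4, and starts with a peak are found from 0.15 to 0.778.

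Letters of common promoter elements were counted on both strands from 250 bases before to 50 bases after the start. CCAAT, the letters of the site of factor NF-Y, occurred in 47 of 63 members, or 74.6%, against 39% of all protein-coding promoters and 40.1% of the other Zfp promoters. It occurred in 19 of the 21 members in peak-free spans and in 28 of the 42 outside them, so its presence did not mark the starts with a peak. The longest run shared by 2 members held these letters in 32 of 45 pairs on chromosome 2, in 12 of 120 on chromosome 4 and in 0 of 45 on chromosome 17, so the chromosome 2 members in particular are not independent cases. TATAAA, the TATA box letters, occurred in 0 of 63 members, against 12.6% of all promoters and 8.28% of the other Zfp promoters. CCGGAAG, an ETS factor site, occurred in 16 members, or 25.4%, against 10.8% of all promoters and 20.9% of the other Zfp promoters. GGGCGG, the GC box, occurred in 22, or 34.9%, against 43.0% of all promoters and 42.1% of the other Zfp promoters. It was found in 12 of the 21 members in peak-free spans, or 57.1%, and in 10 of the 42 outside them, or 23.8%, on opposite sides of that background. The 21 include pairs with identical start sequences, so they are not independent cases here either. CGCATGCG and AGATGGCG, letters of NRF1 and YY1 sites, were found in none, against 2.61% and 2.29% of all promoters. The other Zfp promoters held them in 6.62% and 3.97%. TGACGTCA, the CRE, was found in 1, against 2.43% of all promoters and 3.97% of the other Zfp promoters. With shares this low, few matches would be expected in 63 promoters. No searched word contains another. A match is only a description of letters.

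Away from their starts, the genes held weak peaks. A peak inside the gene body but outside the start window was found in 25 of 63 members, or 39.7%, against 54.2% of all protein-coding genes and 48.3% of the other Zfp genes. All 25 lie outside the peak-free spans, where they make up 59.5% of 42 members, against 54.9% of all protein-coding genes and 48.7% of the other Zfp genes, so the order of these groups depends on the spans. The density was 2.58 peaks per 100 kb of member gene, or 3.81 outside the spans, against 4.53 for all protein-coding genes and 5.04 for the other Zfp genes there. The 45 distinct body peaks had a median fold enrichment of 3.70 and 9 fragments, and the 45699 peaks in protein-coding gene bodies away from any start also had a median of 3.70. The 2 sets are not alike, because 2 of the 45 lay at the start of another protein-coding gene. Another transcript of the same gene started at 2 of the 45. Repeat-masked bases made up a median of 45.3% of the members' body peaks, against 12% of those 45699 and 8.14% of the members' own start peaks. Reads from repeats that match several copies were placed at random among them, so such a peak may hold reads of another copy.

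Zfp943 had the most body peaks, 6 in 108617 bp, the longest gene of the set. The highest of these, chr17:22049607-22050125, had a fold enrichment of 6.12 from 17 fragments (9.90 to 27.2). Zfp934, Zfp935 and Zfp961 had 4 each. Zfp934 and Zfp935 overlap on chromosome 13 and share 3 of them, and the strongest body peak of Zfp934, at 12, is the start peak of Zfp935. Zfp937 and Zfp950 had 3 each. Zfp957, which had no start peak, had 2, with 9 and 10 fragments, and the second of these lies wholly in repeat-masked sequence.

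The zinc finger array of such genes is mostly encoded by 1 long final exon, and these exons are known to carry H3K9me3 in many cell types. A peak over the longest coding exon was found in 2 members, Zfp930 and Zfp957, or 3.17%. Unlike the body count, this count kept peaks in the start window, so a longest exon near the start can hold the start peak. How much of each share below comes from such peaks was not tested. The background was 19.4% of protein-coding genes, whose median exon is shorter, at 339 bp against 1228 bp. In the other Zfp genes, with a median of 1431 bp, the share was 18.9%. Outside the peak-free spans it was 4.76% of 42 members, against 19.7% of all protein-coding genes and 19% of the other Zfp genes. Both peaks were weak, with 6 fragments (2.2 to 13.1) in Zfp930 and 9 (4.12 to 17.1) in Zfp957. The exon of Zfp957 holds no C2H2 match.

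**Figure D4:**
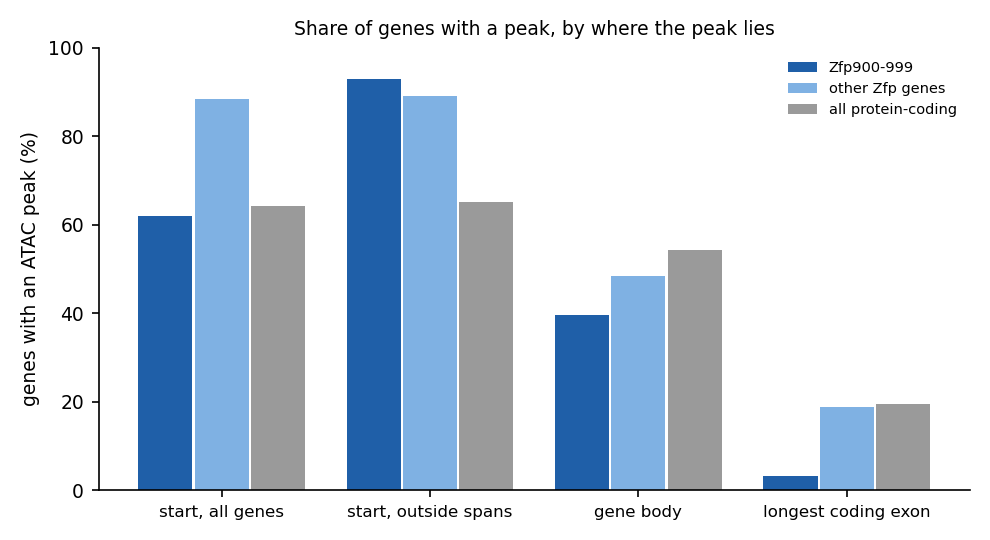
Share of genes (%) with an ATAC peak within 500 bp of the start, at the start for genes outside the peak-free spans only, in the gene body outside the start window and over the longest coding exon, for the 63 members (dark blue), 302 other Zfp genes (light blue) and all protein-coding genes (grey). The members reach 61.9% at the start, 92.9% outside the spans, 39.7% in the body and 3.17% over the exon. The exon shares include peaks in the start window.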

How the data were processed

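ATAC-seq was performed on EHMT2-dTAG mESCs of 2 clones treated with DMSO. Reads were joined over technical replicates and trimmed (BBMap) by the authors, and aligned to mm10 with STAR 2.7.10, which wrote a read matching several places at 1 of them at random. Duplicates were removed with Picard 2.26.0, and reads of ENCODE High Signal Regions were also removed. Fragments were shifted by +4 and -5 bp before peaks were called with MACS2 2.2.6. Versions are from the submitters' processing notes. The deposited fold enrichment is a ratio, the deposited −log10 p-value and −log10 q-value refer to the summit, and the deposited score was not used. Of 116782 peaks, the 116777 on the numbered chromosomes, X and Y entered the analysis. The lowest −log10 q-value was 1.30.

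The number of fragments over each summit was worked back from the ratio and the p-value, which MACS2 derives from it, and was whole within 0.01 for 116777 peaks. On 18474 simulated peaks, 100% were recovered. The median peak had 9 fragments and the weakest 6. Library totals were not used here. Intervals are exact 95% Poisson intervals.

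Starts, exons and coding sequences were those of GENCODE vM21 on GRCm38, an earlier release than the study used. C2H2 matches were counted in translated GENCODE coding sequences and not, as planned, in RefSeq proteins. A peak counted with 1 bp of overlap, and of several at a start the one of highest fold enrichment was taken. The members, lists and motifs were chosen with earlier results of these data known. The rule for naming took the 10 highest and 5 lowest start peaks, up to 10 members without one (farthest from a peak first), the 5 with most body peaks, up to 10 members per cluster by position, and members in 2CLC ECORDs. Other members were named after their values were seen. Promoter sequences were those of the 3 highest start peaks and of members without one, farthest from a peak first, of which 1 sequence is not reported here. The scripts ran under Python 3.11.15 and used SciPy 1.17.1, NumPy 2.4.6, Biopython 1.88 and pandas 2.3.3.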

Additional observations from a re-analysis of the deposited data

How the results depend on the processing

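With 1 merged list, no value has a spread between clones, and the counting intervals set the precision of each peak. No paired analysis was possible because the list holds the clones merged. The number of members with a start peak was 39 with windows of 250, 1000 and 2000 bp, with summits only and with any transcript start, 34 once peaks needed a −log10 q-value of 10, 38 of 49 without members of copied sequence, and 34 of 58 without chromosome 8. The median fold enrichment of start peaks lay between 11.9 and 13.1 over its alternatives. Of 61 values recomputed under the alternatives listed at the outset, 58 stayed within 1.5 times the value as reported. The other 3 came from that q-value threshold, which left 5 members with a body peak, 0.269 body peaks per 100 kb and 0 members with a peak over the longest coding exon, since most of these peaks rest on few fragments. Outside the peak-free spans, the density at that threshold was 0.397 body peaks per 100 kb of member gene. It was 0.732 for all protein-coding genes and 1.07 for the other Zfp genes there. The shares of all genes with a body or exon peak at that threshold are not given here. Among alternatives chosen after seeing the data, the peak-free spans were left out, which takes out only starts without a peak. A start peak was then present in 21 of 22 clustered members and 2 of 2 members in ECORD ranges. With the peak shared by Zfp942 and Zfp943 counted once, the median was 12.2. Leaving out single replicates was not possible because the list does not separate the clones.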
